A study of Mus musculus with 419 samples.

Results

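Tbx3, Tfcp2l1, Zfp42 and Prdm14 encode 4 nuclear proteins known as regulators or markers of naive pluripotency, the ground state of the early epiblast that mouse embryonic stem cells keep in culture. They were taken by name, and they are 4 of the 10468 autosomal genes that could be measured on both alleles. The 2 allele tables hold 12 transcript rows of them, 6 for Tbx3, 3 for Zfp42, 2 for Tfcp2l1 and 1 for Prdm14. The cells were 419 single embryonic stem cells in the G1 phase of the female line F1-21.6, a hybrid that carries one chromosome set of strain 129 (129Sv) and one of CAST (Cast/EiJ). All were grown on laminin-511 without feeder cells in medium with serum and leukemia inhibitory factor (LIF), and none was treated otherwise, so the comparison that the design offers is between the alleles of the same cell. The stated aim was the kinetics of transcriptional bursts, the on and off switching of single alleles. RNA was sequenced cell by cell with RamDA-seq, which covers total RNA along the whole transcript. The line is 1 hybrid line, and the labels name no separate cultures, so all cells form 1 sample.

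Naive pluripotency is held by a network of transcription factors that LIF keeps active through its receptor and STAT3. Tfcp2l1, of the CP2 family, is a STAT3 target within that network, and Tbx3, a T-box factor, is known to act in the network downstream of PI3K and AKT. Zfp42, also called Rex1, is a zinc finger protein related to YY1, long used as a reporter of the naive state, and its protein is a known target of the X-linked ubiquitin ligase RLIM. Prdm14, a PR-domain zinc finger protein, is known to hold down FGF receptors and the DNA methyltransferases of the Dnmt3 family together with CBFA2T2 and Polycomb proteins.

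Values are whole numbers that the authors scaled to a nearly common total per cell, so they are called scaled values here and are not reads. Cell totals over both alleles ran from 698363 to 1477656, with a median of 925852. The depth in reads is unknown. The cells came from sequencing lanes 2 to 6, with 88, 83, 82, 80 and 86 cells, and an SD over lanes is a technical spread. The libraries carry 95 index pairs, each used in more than 1 lane and no more than once within a lane. All 8 stem cell markers were above 0 in most cells, and Pou5f1 was above 0 in 100% of them. Their summed scaled value had a median of 2247 per cell (13 to 4083). Of the markers of other cell types, 3 of 9 for primitive endoderm and 3 of 8 for trophectoderm were above 0 in 50% of cells or more, and the median summed values were 14 and 42. So were 5 of 6 for primordial germ cells, 3 of 6 for formative and primed epiblast and 2 of 4 for neural cells. Their median sums were 43, 113 and 15. The counts were 1 of 7 for fibroblasts, 0 of 5 for mesendoderm and 0 of 6 for 2-cell-like cells. Sox17, which defines endoderm, had a mean of 0.0477 and Sox7 8.42, while Cdx2, which defines trophectoderm, had 0.687 and Tfap2c 28.3. Krt8, an epithelial keratin, was uneven, with a median of 5 and a mean of 178. No marker of any list was at 0 in all cells. Cells that stood apart numbered 7: 6 had a summed stem cell marker value of 13 to 86, where the next cell had 113, and 1 had the highest total. These limits were chosen after the values were seen, and each result was also computed without the 7 cells.

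A pair of Tbx3 rows carries nearly all of its signal and, within the coding part, differs in a single exon, so that exon is shown first. The long form (ENSMUST00000018748) and the short form (ENSMUST00000121021) held 49.0% and 47.6% of the gene's summed value. Exon 3 of the long form (60 bases, GRCm38, chr5:119675243-119675302, plus strand) lies in the coding part and is absent from the short form. It is the alternative exon of the isoform known as Tbx3+2a, inserted in the DNA-binding domain. The coding parts are 2223 and 2163 bases long. The rows also differ outside them, with starts at 119671018 and 119670862, lengths of 4856 and 4777 bases and 8 exons each. The exon is in capitals below, and the lower-case letters are the 15 bases on each side, which are joined directly in the short form.
Tbx3 long form: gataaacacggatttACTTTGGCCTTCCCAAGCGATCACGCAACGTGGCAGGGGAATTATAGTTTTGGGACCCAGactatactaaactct
Tbx3 short form: gataaacacggatttactatactaaactct

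Promoter sequences from the RefSeq table (GRCm38.p6) matched 2 of the 4 members, Tfcp2l1 and Zfp42. The 250 bases before each start are printed for these genes only, because no promoter sequence was matched for the other members. The letters are those of the reference build. Sequence differences between the alleles, and any link of these letters to allele use or to correlation over cells, were not tested. In Tfcp2l1 (chr1:118627695-118627944, plus strand) the capitals mark a TATAAA match that begins 28 bases before the start; 13.6% of all 32851 promoter windows hold one on either strand. In Zfp42 (chr8:43307010-43307259, minus strand) the capitals mark an octamer, ATTTGCAT, the letters that POU factors such as the product of Pou5f1 are known to read. It begins 186 bases before the start, and 1.74% of the promoter windows hold one.
Tfcp2l1: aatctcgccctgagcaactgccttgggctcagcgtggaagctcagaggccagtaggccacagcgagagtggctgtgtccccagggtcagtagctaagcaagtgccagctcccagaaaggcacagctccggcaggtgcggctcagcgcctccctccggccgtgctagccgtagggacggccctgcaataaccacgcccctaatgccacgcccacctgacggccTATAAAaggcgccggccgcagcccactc
Zfp42: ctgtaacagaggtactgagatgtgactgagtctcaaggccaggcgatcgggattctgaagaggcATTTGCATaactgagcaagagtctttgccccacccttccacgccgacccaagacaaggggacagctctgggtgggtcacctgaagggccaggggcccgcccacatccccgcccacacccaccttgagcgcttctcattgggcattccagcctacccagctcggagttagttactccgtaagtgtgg

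Windows of 300 bases, which also take in 50 bases after the start, were searched on both strands for 10 motifs. The KLF motif CCCACCC had 2 matches in Zfp42 and 0 in Tfcp2l1, against 17.5% of all windows with a match. The letters AAGGTCA (ESRRB), CATTGT (SOX), TTCCNGGAA (STAT), GGTGTGA (T-box), GGTCTC (PRDM14), AAGATGG (YY1) and the CP2 motif of paired CCAG letters 6 bases apart had 0 matches in either window. A match is a run of letters and not a measured binding site, and its absence says only that those letters are not in these windows.

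The 4 genes were found at very different levels. Per kb of transcript, mean scaled values were 90.2 for Zfp42, 52.1 for Tfcp2l1, 10.1 for Tbx3 and 4.34 for Prdm14, where the median of 11458 expressed genes was 5.95. Of those genes, 435 lay above Zfp42, 814 above Tfcp2l1, 3988 above Tbx3 and 6796 above Prdm14. Each step in this order is larger than the lane-to-lane spread of the means, which was 19.1 on a mean of 160 for Zfp42, 19.0 on 483 for Tfcp2l1, 4.45 on 49.2 for Tbx3 and 3.37 on 11.1 for Prdm14 (SD over 5 lanes). These means and the values below are those of the row with the largest sum of each gene, both alleles added, unless all rows are named.

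Tfcp2l1 was seen in nearly every cell. Its main row (ENSMUST00000027629, chr1, 118627946 to 118685168, plus strand, 15 exons) held 99.8% of the gene's value. The scaled value ran from 0 to 2017 with a median of 425 and quartiles of 241.5 and 655.5. It was above 0 in 417 of 419 cells (99.5%, exact 95% binomial interval 98.3 to 99.9, which covers counting error only), and 32 cells lay at 1000 or more.

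Zfp42 was likewise broad. Its main row (ENSMUST00000082120, chr8, 43295067 to 43306980, minus strand, 4 exons) ran from 0 to 538 with a median of 157 and quartiles of 70 and 230.5. It was above 0 in 407 cells (97.1%, interval 95.1 to 98.5), while 41 of these cells held less than 10. With its 3 rows added, Zfp42 was above 0 in 419 of 419 cells, with a median of 250 and a lowest value of 2.

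Tbx3 was patchier than genes of a like level. The long form (chr5, 119671018 to 119684724, plus strand, 8 exons) ran from 0 to 366 with a median of 30. It was at 0 in 132 cells and above 0 in 287 (68.5%, interval 63.8 to 72.9), whereas the running median of this share for genes of the same mean was 99.8%. The 42 cells with the highest values held 38.0% of the sum, against 23.8% for Tfcp2l1 and 23.4% for Zfp42. With all 6 rows added, 385 cells (91.9%) had a value, the median was 86, and 34 cells stayed at 0. So the share of empty cells depends on the isoform row counted.

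Prdm14 was the scarcest member. Its single row (ENSMUST00000047577, chr1, 13113457 to 13127163, minus strand, 8 exons) ran from 0 to 181 with a median of 5 and an upper quartile of 15. A value above 0 was found in 69.0% of cells (interval 64.3 to 73.4), and in 32.9% of all cells it was above 0 but below 10. Genes of that mean had a running median of 91.9%. The 42 highest cells held 46.7% of its sum. The cell with 181 and the highest lane mean of 17.1 both belong to lane 5; the other lanes had means of 8.98 to 10.6.

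Within genes, the isoform rows did not move as one. The long and short forms of Tbx3 were both above 0 in 263 cells, only the long form in 24, only the short form in 91 and neither in 41, with a Spearman correlation of 0.50 over 419 cells. The row of the long form was therefore above 0 in 68.5% of cells and that of the short form in 84.5%. These rows also differ outside the coding part, so the shares do not describe the exon alone. For Zfp42, the main row and the others (ENSMUST00000209356 and ENSMUST00000211248) held 64.7%, 28.1% and 7.16% of the value, and the correlations were 0.22 and 0.39 of the main row with the others and 0.26 between those. All 3 Zfp42 rows share the same coding exon of 864 bases (chr8, 43295599 to 43296462) and differ outside it. How the authors split reads between rows of 1 gene was not given in the sources used here, so the row values include that step.

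Beside their families, Tfcp2l1 and Zfp42 were the leading members and Tbx3 and Prdm14 were not. Tfcp2l1 stood at 52.1 per kb, Ubp1 at 9.22 and Grhl2 at 7.80, the next of the CP2 and grainyhead genes. Zfp42 stood at 90.2 per kb and Yy1, its relative on chromosome 12, at 14.0. Among T-box genes Mga, which also pairs with MAX, had 14.2 per kb, Tbx3 had 10.1 and Eomes 1.16. Among PRDM genes Prdm4 had 22.9 per kb and Prdm2 11.3, and they were followed by Prdm14 at 4.34 and Prdm10 at 4.28.

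**Figure D1:**
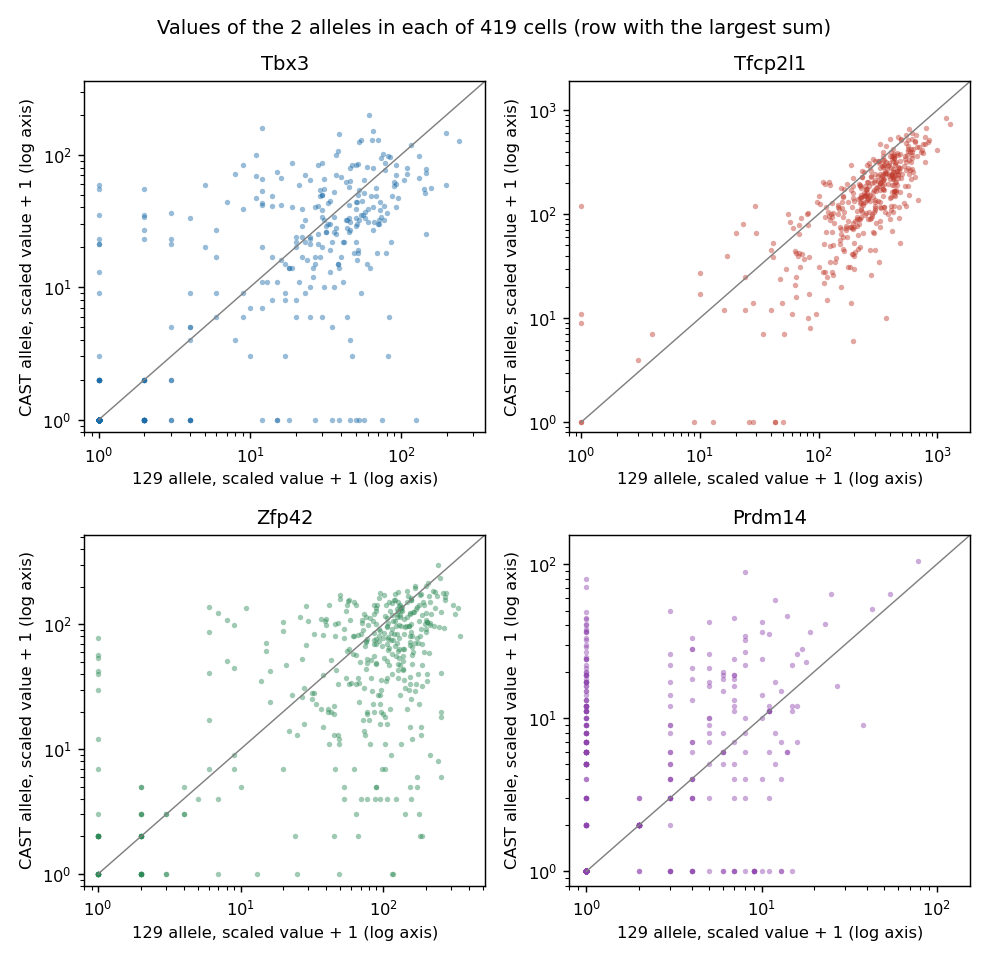
Scaled value + 1 of the 129 allele (x, log axis) against the CAST allele (y, log axis) in each of 419 cells, 1 panel per gene; the line marks equal values. Tfcp2l1 and Zfp42 lie mostly on the 129 side, Tbx3 lies around the line with an empty group at the origin, and Prdm14 lies on the CAST side with many cells at 0 for 129.

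In the main rows, the alleles were used unequally in 3 of the 4 genes. The share of the summed value that came from the 129 allele was 62.5% ± 1.21 (SD over 5 lanes) for Tfcp2l1 and 60.1% ± 2.44 for Zfp42. It was 52.3% ± 4.08 for Tbx3 and 25.3% ± 2.51 for Prdm14. Over the 10468 genes the median share was 50.0%, with quartiles of 45.3 and 54.6. Tfcp2l1, Zfp42 and Prdm14 thus lay outside the middle of all genes by more than their lane spread, and the long form of Tbx3 did not. With all rows added, Tbx3 at 56.2% ± 1.86 and Zfp42 at 57.3% ± 2.02 were close to each other.

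Prdm14 leaned to CAST by 2.95-fold, the only member past 2-fold in this direction, where 6.43% of all genes were past it. A 129 share lower than that of Prdm14 was found in 311 of the 10468 genes. CAST was the higher allele in 197 cells and 129 in 54. The CAST allele was above 0 in 62.5% of cells with a mean of 13.3 in those cells, and the 129 allele in 40.3% with a mean of 6.99. Both parts of the difference thus pointed the same way, with ratios of 1.55 and 1.90 of CAST over 129.

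No member was 2-fold or more higher from 129, as 4.58% of all genes were. Tfcp2l1 was higher from 129 in 86.6% of cells and from CAST in 12.6%. Both its alleles were above 0 in nearly all cells, and the mean where above 0 was 1.65-fold higher for 129. Zfp42 was higher from 129 in 65.4% of cells and from CAST in 28.9%, with means where above 0 of 103 and 68.4. The share of cells above 0 was near its ceiling for both, at 98.8% and 97.9% for the 129 and CAST alleles of Tfcp2l1 and 92.8% and 93.3% for those of Zfp42, so it could hardly differ. With at least 5 required, the Zfp42 alleles were on in 86.2% and 81.1% of cells.

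The allele share also differed between rows of a gene. The long form of Tbx3 had a 129 share of 52.3% and the short form 60.9%, and with all rows the gene was at 56.2% ± 1.86. The Zfp42 rows, in falling order of their sums, were at 60.1%, 53.8% and 46.2%, and with all rows the gene was at 57.3%. Only Zfp42 among the members shared a large part of its sequence: 12.1% of the 40-base windows of its main row also occur in the pseudogene Zfp42-ps1, whose own values were not analysed here. The figure was 1.32% for Tfcp2l1, 0.238% for Prdm14 and 0 for Tbx3. The part of this shared sequence, and of read mapping to either strain, in the allele shares was not tested.

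**Figure D2:**
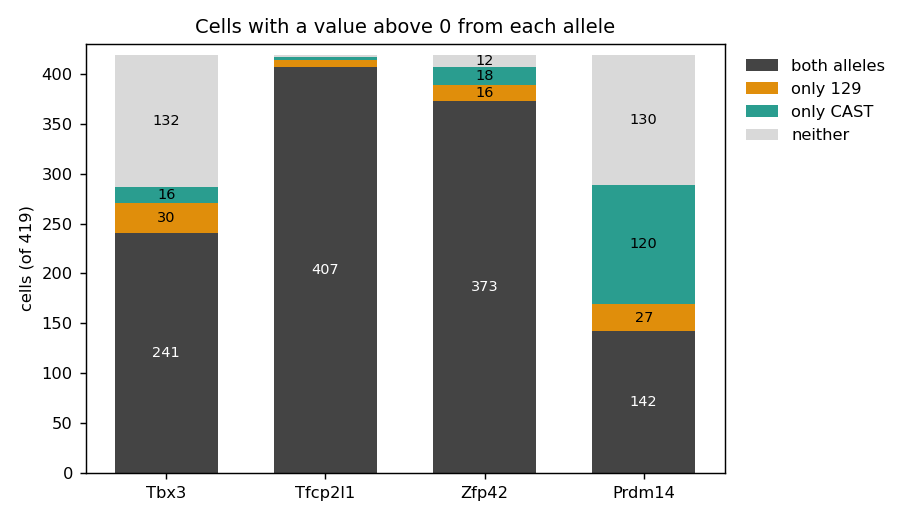
Number of cells (y, of 419) in which both alleles, only 129, only CAST or neither allele had a value above 0, stacked for each gene. Cells with only CAST numbered 120 for Prdm14 and 16 for the long form of Tbx3.

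On and off states of the alleles set the long form of Tbx3 apart from Prdm14 although both were absent from a like number of cells. For the long form, 57.5% of cells had both alleles, 7.16% only 129, 3.82% only CAST and 31.5% neither. For Prdm14 the same shares were 33.9%, 6.44%, 28.6% and 31%. The long form of Tbx3 was thus mostly seen from both alleles or from none, and Prdm14 often from one. With all rows added, Tbx3 had both alleles in 77.8% of cells, only 129 in 9.55%, only CAST in 4.53% and neither in 8.11%. Cells with neither were then fewer than cells with a single allele, and far fewer than for Prdm14.

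As a share of cells with a value, cells with a single allele made up 16.0% for Tbx3 (interval 12 to 21) and 50.9% for Prdm14 (44.9 to 56.8). Alleles that were on independently at the same frequencies would give 54.1% and 67.5%, and they would leave 57.2 and 93.7 cells with neither. For Zfp42 the single-allele share was 8.35% (5.85 to 11.5) against 12.9%, and for Tfcp2l1 2.40% (1.16 to 4.37) against 3.29%. In the main rows of all 4 genes the single-allele share was below that of independent alleles, but the interval of Tfcp2l1 holds the independent value. How many of all genes show this direction was not counted, so it is not read as particular to the members. With all rows added the share was 15.3% against 26.4% for Tbx3, a narrower gap than that of Prdm14, and for Zfp42 it was 2.86% (1.49 to 4.95) against 2.82%, so the direction turned. Genes of the same mean had running medians of 14.8% at the level of Tbx3, 49.6% at Prdm14, 1.79% at Zfp42 and 0.477% at Tfcp2l1, so the main rows of Tbx3 and Prdm14 were near the usual value for their level and those of Zfp42 and Tfcp2l1 above it. The all-rows interval of Zfp42 holds the running median at its main row's level. A limited number of cells held exactly equal values above 0 for both alleles, 10 for Tbx3, 1 for Tfcp2l1, 12 for Zfp42 and 38 for Prdm14.

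Over cells the alleles of a gene rose and fell together to unlike degrees. The Spearman correlation between the 129 and the CAST value over 419 cells was 0.80 for Tfcp2l1, 0.77 for Tbx3, 0.51 for Zfp42 and 0.33 for Prdm14. In the 5 lanes it ran from 0.71 to 0.85 for Tfcp2l1, from 0.65 to 0.86 for Tbx3, from 0.42 to 0.56 for Zfp42 and from 0.26 to 0.52 for Prdm14. The ranges of Tfcp2l1 and Zfp42 did not overlap, and those of Tfcp2l1 and Tbx3 did. The points share a library, so both alleles carry the same capture of a cell.

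In cells with a scaled value of at least 20, the share of 129 within a cell was most even for Tfcp2l1. Its quartiles were 55.9% and 72.5% over the 98.1% of cells that passed, and 50 cells lay at 80% or more and 2 at 20% or less. Zfp42 had quartiles of 47.7% and 76.1% over 360 cells, with 78 cells at 80% or more and 21 at 20% or less. Tbx3 had quartiles of 36.6% and 66.7% over 235 cells, with 25 and 31 cells at those ends. Prdm14 had 78 such cells, of which 40 lay at 20% or less and 1 at 80% or more.

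Variation over cells was split into a part between the alleles of a cell (intrinsic noise, the mean of the squared difference of the mean-scaled alleles, divided by 2) and a part common to both (shared noise, the mean of their product minus 1). These were taken for 6030 genes, those whose alleles both had a mean of 5 or more and whose 129 share was 10% to 90%. Over these genes, the median intrinsic noise was 0.707 and the median shared noise -0.026. Tbx3, Tfcp2l1 and Zfp42 were among the 6030, and Prdm14 was not, since its 129 mean was 2.78.

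Shared noise was high in all members. It was 1.09 for Tbx3 (lanes 0.767 to 1.54), and 209 of the 6030 genes were higher. It was 0.424 for Tfcp2l1 (lanes 0.353 to 0.572), with 549 genes higher, and 0.316 for Zfp42 (lanes 0.233 to 0.409), with 698 genes higher. All 3 lay at least 0.2 above the running median of genes of their mean, where 19.8% of all genes did, and all 3 were above 0, as 42.8% of all genes were. With all rows added, the shared noise of Tbx3 was 0.684.

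Prdm14 had a shared noise of 1.65, but with little precision, since the lanes ran from 0.215 to 2.62. Without its highest cell the value was 1.19, and without lane 5 it was 0.733.

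Intrinsic noise lay above the running median in each of the 3 genes, and by less than 2-fold. It was 0.777 for Tbx3 where the running median of genes with its mean was 0.554, 0.105 for Tfcp2l1 where it was 0.0875, and 0.355 for Zfp42 where it was 0.212. The residuals on the log2 scale were 0.49, 0.27 and 0.75, so 0 of the 3 members were 2-fold or more above the running median, as 5.67% of all genes were. None was 2-fold below it, as 8.67% were. Higher residuals were found for 1256 genes above Tbx3, 1984 above Tfcp2l1 and 678 above Zfp42.

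With the mean limit lowered to 2 per allele, which was chosen after the values were seen and gave 8555 genes, Prdm14 had a residual of 0.60 and an intrinsic noise of 2.21. The shared part made up 80.1% of the summed noise for Tfcp2l1, 58.4% for Tbx3, 47.0% for Zfp42 and 42.8% for Prdm14.

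**Figure D3:**
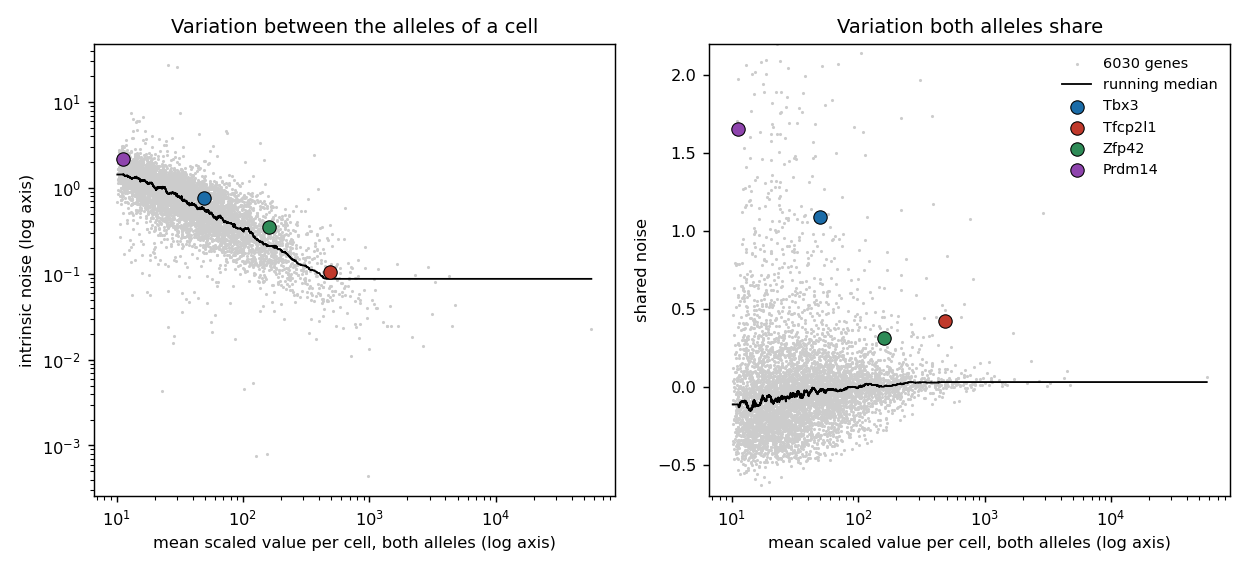
Intrinsic noise (left, log axis) and shared noise (right) against the mean scaled value per cell (log axis) of 6030 genes (grey), their running median (line) and the 4 members (coloured; Prdm14 lies below the mean limit and is not among the grey points). Shared noise above 2.2 is not drawn; the members lie above the line in both panels, and on the right run from 0.316 for Zfp42 to 1.65 for Prdm14.

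The members were correlated with each other in every pair. Spearman correlations of the cell-scaled totals over 419 cells were 0.57 for Tbx3 and Tfcp2l1, 0.52 for Tfcp2l1 and Prdm14, and 0.47 for Tfcp2l1 and Zfp42. They were 0.41 for Tbx3 and Prdm14, 0.38 for Zfp42 and Prdm14, and 0.32 for Tbx3 and Zfp42. Tfcp2l1 took part in the 3 highest. The 6 values were above 0 in each lane, with the lowest at 0.18 for Tbx3 and Zfp42 and the highest at 0.66 for Tbx3 and Tfcp2l1. Cells share the scaling to a common total, and such values describe these cells and carry no p-value.

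Correlations of an allele of one gene with the alleles of another were about as high across strains as within them. For Tbx3 and Tfcp2l1 the pairings were 0.45 for 129 with 129, 0.59 for CAST with CAST, and 0.48 and 0.57 across strains. For Tfcp2l1 and Zfp42 they were 0.44 and 0.37 within strains and 0.36 and 0.41 across. For Zfp42 and Prdm14 they were 0.30 and 0.30 within strains and 0.28 and 0.23 across.

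All 4 members were above 0 in 224 cells, 3 in 124 cells, 2 in 62, 1 in 8 and none in 1. With all rows added the lowest number per cell was 2, found in 21 cells. In the main rows, Tbx3 and Prdm14, the patchy members, were both absent in 67 cells, where their separate shares would give 41.0. Of this pair, only Tbx3 was seen in 63 cells and only Prdm14 in 65.

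**Figure D4:**
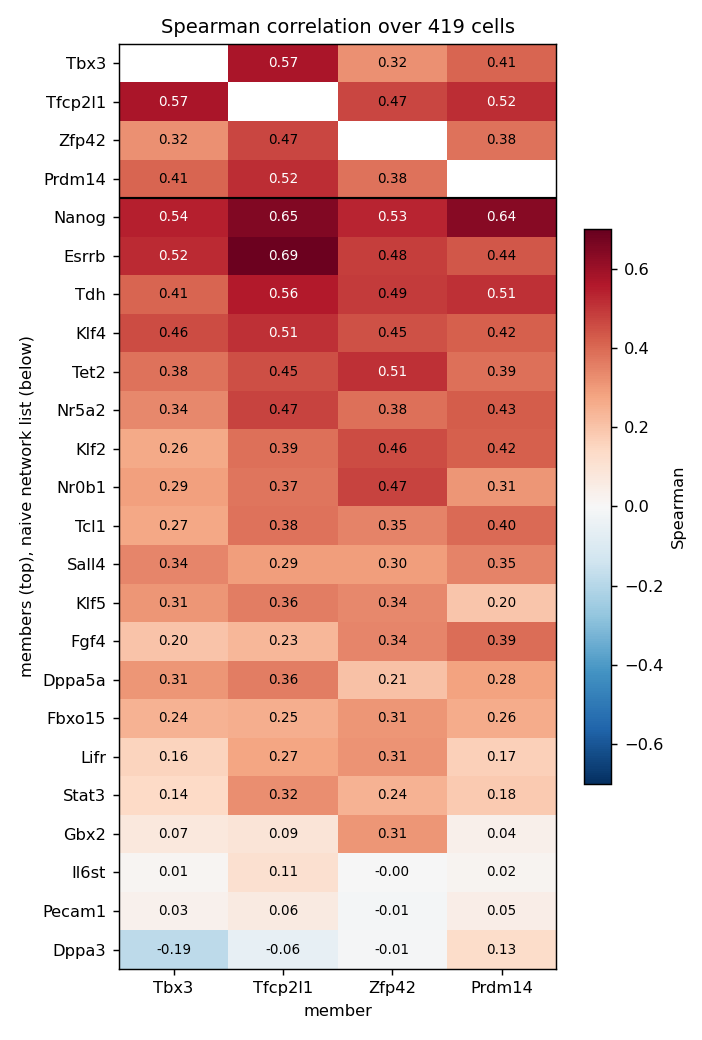
Spearman correlation over 419 cells of each member (columns) with the other members (top 4 rows) and with the 20 genes of the naive network list (below, ordered by their mean over the 4 members). Nanog and Esrrb head the list with all values at 0.44 or above, and Il6st, Pecam1 and Dppa3 stand at its foot.

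Most genes of a naive network list were higher where the members were higher. Of its 20 genes, 16 had a correlation of 0.2 or more with Tfcp2l1, where 8.96% of all other genes had, and none was at -0.2 or less, where 6.66% of all genes were. The count was 17 with Zfp42 (10.7% of all genes), 14 with Tbx3 (6.24%) and 13 with Prdm14 (7.10%), and none was at -0.2 or less in any of them (10.3%, 3.86% and 6.47% of all genes). The list's median was 0.36 with Tfcp2l1, 0.34 with Zfp42, 0.33 with Prdm14 and 0.28 with Tbx3, where the median over all genes was between 0.0059 and 0.0104. These genes were listed with earlier results of the same cells known, so the counts describe and do not test.

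Nanog, the homeobox factor at the hub of the network, was the closest or nearly the closest gene to each member. Among 6329 genes that had a mean of 10 or more it ranked 1 for Prdm14 (0.64), 2 for Tfcp2l1 (0.65), 2 for Zfp42 (0.53) and 5 for Tbx3 (0.54). The highest for Tfcp2l1 was Esrrb, an orphan nuclear receptor, at 0.69 (lanes 0.61 to 0.77), followed after Nanog by Nfatc2ip at 0.64, Aff1 at 0.58 and Ooep at 0.57. For Tbx3 it was Nfatc2ip at 0.59, with Cox5a at 0.58, a respiratory chain subunit, and Calcoco2 at 0.57, an autophagy receptor, ahead of Tfcp2l1. For Zfp42 it was Rpp25 at 0.54, with H2-M5 and Bicral at 0.51 each and Tet2, a methylcytosine dioxygenase, at 0.51. For Prdm14, Nanog was followed by Fbrsl1 at 0.58, Ifitm2 and Kdm5b, a histone demethylase, at 0.53 each and Ticrr at 0.52.

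At the other end stood genes that were high where the members were low. For Tbx3 the lowest were Qser1 at -0.47, Skil, a repressor of SMAD signalling, at -0.46 and Adk at -0.45. Skil was also among the lowest for Tfcp2l1 at -0.49, beside Bcar1, an adhesion scaffold, at -0.50 and Kcnk1 at -0.46. For Zfp42 they were Ssbp3 at -0.49, Cdcp1 at -0.49 and Tubb6 at -0.47. Prdm14 had Peg10, an imprinted gene, at -0.56, then Capn2 at -0.51 and Pxdn at -0.49.

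Core pluripotency genes moved with the members less evenly. Of 7 core genes, 5 were at 0.2 or more with Zfp42, 4 with Tbx3, 3 with Tfcp2l1 and 3 with Prdm14, where 10.7%, 6.24%, 8.96% and 7.10% of all genes were. Pou5f1 had 0.45 with Zfp42 and 0.32 with Tfcp2l1, and Lin28a, which binds let-7 precursors, was at -0.23 with Tbx3. The 11 measured of 15 formative and primed genes gave medians of 0.092 for Tbx3, 0.029 for Tfcp2l1, 0.085 for Zfp42 and -0.010 for Prdm14. Their direction was mixed: with Zfp42, Foxd3 was at 0.35 and Pou3f1 at -0.22, and with Prdm14, Zic2 was at 0.28 and Pou3f1 at -0.26.

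The pathways set upstream of the members did not move as blocks. In the LIF and STAT3 list of 10 genes, 5 reached 0.2 with Zfp42, 4 with Tfcp2l1, 1 with Tbx3 and 1 with Prdm14. Over all genes the shares were 10.7%, 8.96%, 6.24% and 7.10%, so the single genes with Tbx3 and Prdm14 are close to the share over all genes. Klf4, Stat3, Lifr, Gbx2 and Il6st of this list also stand in the naive network list, as do Sall4 of the core list and Tet2. The counts of the lists are therefore not separate. Klf4, a STAT3 target, had 0.51 with Tfcp2l1 and 0.46 with Tbx3, and Stat3 itself had 0.32 with Tfcp2l1. Junb, an AP-1 subunit, was at -0.30 with Prdm14 and -0.24 with Tbx3. In the PI3K and AKT list of 8 genes none reached 0.2 with any member and the median was -0.14 with Tbx3, with Akt1 at -0.21. With Zfp42, 3 were at -0.2 or less, where 10.3% of all genes were, among them Akt1 at -0.42.

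Of the partners of Prdm14 and the genes it is known to hold down, 11 of 12 were measured. With Prdm14, 2 were at 0.2 or more (7.10% of all genes) and 1 at -0.2 or less (6.47% of all genes), which is near the share over all genes. The list's median was 0.059. It pools partners with genes held down, so its counts and median describe neither alone. The FGF receptors Fgfr2 and Fgfr1 were at -0.17 and -0.020, and Dnmt3l at -0.12. Of the partners, Suz12 was at 0.17, Ezh2 at 0.11 and Cbfa2t2 at 0.059. The de novo methyltransferase Dnmt3b was at -0.20 and Tet2 at 0.39. Dnmt3a, the other such enzyme, was at -0.14 with Prdm14, -0.25 with Tbx3, -0.22 with Tfcp2l1 and 0.0034 with Zfp42.

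Of the X-linked genes tied to Zfp42 in the known RLIM pathway, Rlim was lower where the members were high. Its correlation was -0.47 with Prdm14, -0.38 with Tfcp2l1, -0.33 with Tbx3 and -0.29 with Zfp42. Tsix, the antisense RNA of Xist, had 0.47 with Zfp42, 0.39 with Tfcp2l1, 0.36 with Prdm14 and 0.29 with Tbx3. Xist itself stayed below 0.2, with 0.13 for Zfp42, 0.12 for Tfcp2l1, 0.12 for Prdm14 and 0.087 for Tbx3. Of these 3 genes, 1 was thus at 0.2 or more and 1 at -0.2 or less with each member. Over all autosomal genes, 6.24% to 10.7% and 3.86% to 10.3% were. X-linked rows hold values in the CAST table only, and the rows of Tsix and Xist overlap on opposite strands with the strand of counting not stated, so their reads cannot be told apart.

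The cell total and the number of transcripts seen moved little with the members. The correlation with the cell total was between -0.12 and -0.064, and with the number of transcripts seen between -0.10 and 0.024. The ribosomal RNA rows had 0.22 with Zfp42, past the limit of 0.2 used for genes, and 0.17 with Prdm14. The 129 share of chromosome 12 beyond 80 Mb, where imprinted genes and Esrrb lie, had -0.29 with Tfcp2l1, -0.18 with Tbx3, -0.088 with Zfp42 and -0.045 with Prdm14. The summed value of 8 trophectoderm markers, which ran from 0 to 11804 over cells with Krt8 and Krt18 as the largest, had -0.40 with Zfp42, -0.25 with Prdm14, -0.24 with Tfcp2l1 and -0.23 with Tbx3. The summed value of 9 primitive endoderm markers ran from 0 to 123 and had between -0.052 and 0.11. The part of these in the correlations between members was not tested.

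A few cells lacked most of the network. With all rows added, 8 cells had Tfcp2l1 below 20. In 2 of them, both from lane 2, Nanog, Pou5f1, Sox2 and Dppa5a were at 0 to 4 while Krt8 was 2066 and 1181. The cell with the highest Prdm14 value, 181, was another of the 8, with Tfcp2l1 at 12, Zfp42 at 114 and Tbx3 at 145. Without the 7 cells that stood apart, the correlations between members ran from 0.30 to 0.56 and the shared noise was 1.05 for Tbx3, 0.406 for Tfcp2l1, 0.296 for Zfp42 and 1.61 for Prdm14.

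**Figure D5:**
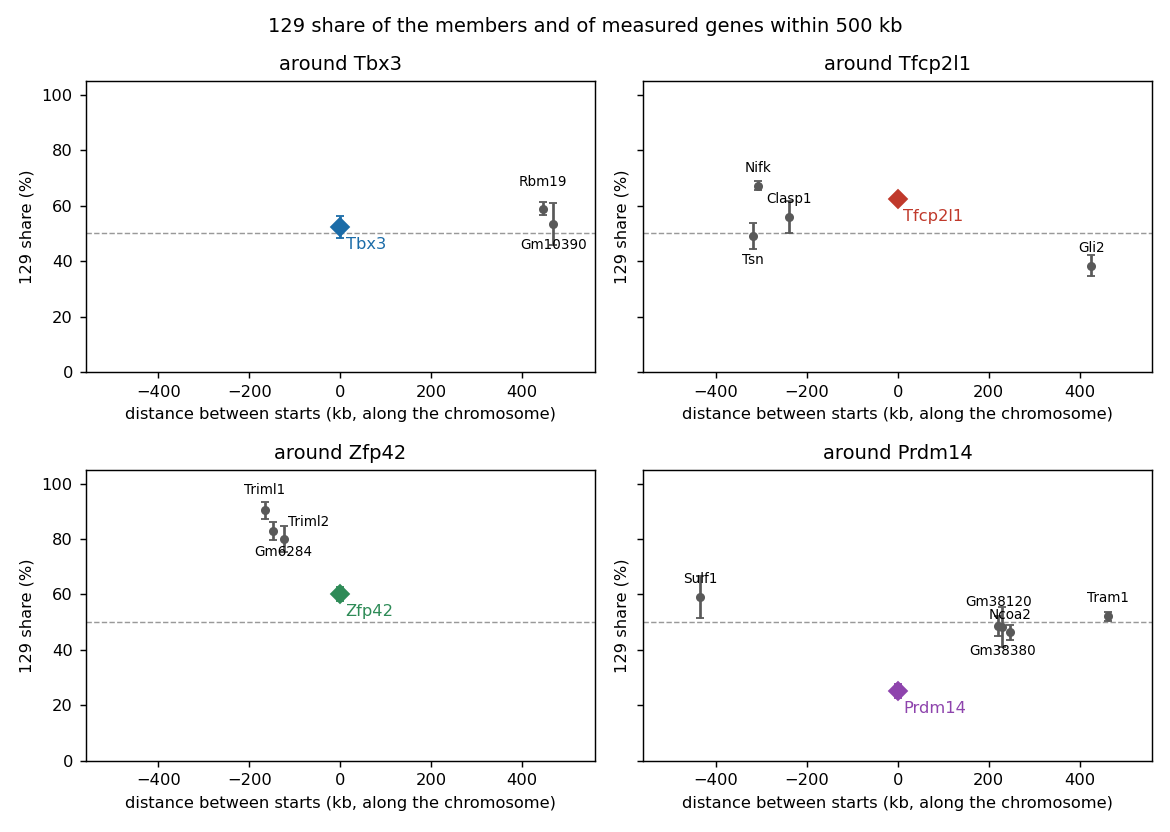
129 share (y, %) of each member (diamond) and of each measured gene that starts within 500 kb (circles) against distance between starts (x, kb); bars are SD over 5 lanes and the dashed line marks 50%. Prdm14 at 25.3% lies below the 5 neighbours drawn, and Zfp42 at 60.1% lies below Triml1, Triml2 and Gm6284.

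The allele share of a member was compared with that of measured genes nearby. Around Prdm14, the 5 measured genes within 500 kb had 129 shares of 46.3% (Ncoa2), 48.3% (Gm38380), 48.7% (Gm38120), 52.1% (Tram1) and 59.0% (Sulf1), and all lay above the 25.3% of Prdm14 by more than their lane SD, which was at most 7.47. Genes nearby that were too low to enter went both ways. Gm38376 at 52.6 kb had 16.9% ± 7.22 and Gm37702 at 172 kb had 21.4% ± 4.82, both on the CAST side like Prdm14. Their mean scaled values were 1.24 and 1.14. Slco5a1 at 135 kb, with a higher mean of 1.59, had 65.6% ± 6.49, on the 129 side. Gm37409 at 109 kb had 63.7% ± 11.0 at a mean of 0.461. All of these low genes were chosen after their values were seen. Around Zfp42, Triml2 at 124 kb had 79.8% ± 4.69, the pseudogene Gm6284 at 148 kb had 82.9% ± 3.28, and Triml1 at 165 kb had 90.4% ± 3.05. Zfp42 leaned the same way as these 3, and by less. Their correlations with Zfp42 over cells were 0.30, 0.24 and 0.32.

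Around Tfcp2l1 the shares were mixed. Nifk was at 67.2%, Clasp1 at 55.9%, Tsn at 49.0% and Gli2, a transcription factor of the Hedgehog pathway, at 38.5%. Gli2 was the one with a correlation above 0.2 with Tfcp2l1, at 0.37. Around Tbx3, Rbm19 had 59.0% and Gm10390 53.3%, and their correlations with Tbx3 were 0.14 and 0.017. Of the antisense gene Tbx3os1, a transcript reaches over the 5′ end of Tbx3 in the annotation, but the row measured here lies upstream and does not overlap it. That row was above 0 in 31 cells with a summed value of 56, against 20594 for the long form of Tbx3.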

How the data were processed

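RamDA-seq of 419 single cells was deposited as 2 tables, 1 per allele, with 117762 transcript rows. The deposited values are a score: whole numbers that the authors scaled to a nearly common total per cell and rounded, as the values themselves show. The design written for these tables treated depth as possibly unknown, and no count test was run. Per the submitters' processing notes, Bowtie 1.1.2 and the build mm10 were used, with no role stated. How reads were given to alleles and rows was not given in the sources used here, nor was the strand of counting. All columns matched a sample title, with 0 unmatched.

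Rows were joined to GENCODE vM21 (GRCm38), where 116824 matched. The row with the largest sum stood for a gene. Genes entered with a sum of at least 1000 and a value in at least 10% of cells. Of 11012 such autosomal genes, 544 in which the tables hold nearly the same value in every cell were left out. Cell totals were scaled to their mean for noise and correlations. The running median took 200 genes ranked by mean. Correlations were counted at 0.2, and intervals for shares of cells are exact binomial at 95%. No p-value was made from cells, doublets were not called, and the values given first use every cell. Of the calculations, only the noise measures were tested on simulated data.

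Named genes were, for each member, the 5 highest and 3 lowest correlations (genes had to have a mean of 10 or more), genes from the ends of each list, the leading paralogs of each family and every measured neighbour within 500 kb. Prdm10, Cdx2, Tfap2c, Sox17, Sox7, Krt8, Krt18, Dnmt3l, Suz12, Ezh2, Cbfa2t2 and the genes shown for single cells were chosen after their values were seen. The members and lists were chosen with earlier results of these data known. Alternatives were a value of at least 5, all rows added, capped values, equal allele totals, unscaled cells, other windows and mean limits, Pearson correlation, and each lane or the 7 cells left out. Scripts ran in Python 3.11.15 and used scipy 1.17.1, pandas 2.3.3, numpy 2.4.6 and matplotlib 3.10.9.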

Additional observations from a re-analysis of the deposited data

How the results depend on the processing

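Noise residuals, shared noise and correlations between members kept their sign under every alternative run. Over these and the shares, 221 of 234 alternative values moved by less than the SD over lanes. This count includes the runs without 1 lane, which kept most cells and so could hardly move by more than that SD. It also includes the shared noise of Prdm14 without lane 5, at 0.733 against 1.65, since its SD over lanes was 0.970. The other 13 of the 234 came from the value required, the row or the kind of correlation. Requiring at least 5, the share of cells with a value was 60.9% for Tbx3, 89.5% for Zfp42 and 53.0% for Prdm14, and the single-allele share was 10.0% for Zfp42 and 70.3% for Prdm14. With all rows added, the share of cells with a value was 91.9% for Tbx3 and 100% for Zfp42, the 129 share of Zfp42 was 57.3% and its single-allele share 2.86%, the shared noise of Tbx3 was 0.684, and Tbx3 correlated at 0.67 with Tfcp2l1 and at 0.46 with Zfp42. Pearson correlation on log2(value + 1) gave 0.58 for Tfcp2l1 and Zfp42. The cause was not tested, beyond these choices themselves. Leaving out a lane gave a shared noise of 0.733 to 1.91 for Prdm14, the lowest without lane 5, and 0.956 to 1.18 for Tbx3; 129 shares stayed within 24.6% to 26.1% for Prdm14 and 59.4% to 60.9% for Zfp42. The scaled values give no depth in reads, so for Prdm14, with a median of 5, a 0 in one allele cannot be told apart from a transcript that was missed.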
